A study of Mus musculus with 15 samples.

Results

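The genes that take up choline, build phosphatidylcholine from it, burn it through betaine and pass its methyl groups through methionine and folate were followed in RNA of mouse colonic crypts. The set was a chosen list of 42 gene symbols, all of them matched to rows of the deposited count table of 32939 genes. Of the 42, 41 passed the filter on low counts and were tested among 17404 genes in all, and Mat1a did not pass. The list comprised 21 genes of choline uptake and phosphatidylcholine metabolism, 15 genes of the betaine branch and the methionine cycle, and 6 folate genes.

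The crypts came from WT mice in 3 groups with n = 5 samples in each. FL-shAlpl mice were on the CDAA diet with a fatty liver and received AAV-shAlpl, an adeno-associated viral vector carrying a short hairpin RNA against Alpl, the gene of tissue-nonspecific alkaline phosphatase. FL-shGFP mice had the same diet and liver condition and received the control vector AAV-shGFP, and NL-shGFP mice had the normal diet, a normal liver and AAV-shGFP. CDAA is the usual name of a choline-deficient, L-amino acid-defined diet. Diet and liver condition changed together, so a difference between FL-shGFP and NL-shGFP cannot be told apart into these sources, and all groups carried an AAV. No normal-liver group had the Alpl hairpin, and the labels give neither the sex and age of the mice, the promoter of the vector, nor whether each replicate was a separate mouse. Should replicates not be separate mice, each p-value reflects no more than sample-to-sample spread.

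Choline enters cells through choline transporter-like proteins, is phosphorylated and activated with CTP, and is joined to diacylglycerol to make phosphatidylcholine, the main phospholipid of cell membranes. Cells can also oxidise choline to betaine, which hands a methyl group to homocysteine and so regenerates methionine, the precursor of the methyl donor S-adenosylmethionine. Folate supplies the same methyl group by another route and carries the carbon units needed for purines and thymidylate. Betaine-dependent methylation is known mainly from liver and kidney, and phosphatidylcholine made in enterocytes is needed to package absorbed lipid.

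Library totals were 42.1 M to 58.6 M counts in FL-shAlpl, 37.5 M to 51.7 M in FL-shGFP and 33.3 M to 41.4 M in NL-shGFP. Mitochondrially encoded genes took 14.8% to 24.3% of the counts in FL-shAlpl, 13.7% to 21.5% in FL-shGFP and 28.0% to 37.5% in NL-shGFP. NL-shGFP replicates 3 and 4 were unusually close, with a median chi-square per gene of 1.51, and so were replicates 1 and 2, with 2.96, where the other NL-shGFP pairs gave 4.34 to 12.7. They differed by more than the value of 0.91 that sampling alone would give with each fragment counted as 2, and were kept as separate samples. Alpl itself had 6, 2, 2, 2 and 0 counts in FL-shAlpl, 15, 14, 18, 25 and 23 in FL-shGFP and 0, 2, 0, 0 and 0 in NL-shGFP. No stem cell or surface colonocyte marker was at 0 throughout a group. Of 10 surface colonocyte markers, 9 were higher in FL-shGFP than in NL-shGFP and 8 were lower in FL-shAlpl than in FL-shGFP. Of 10 stem cell markers 9 were lower and 8 higher in those comparisons. Of 10 T and NK cell markers 9 were higher and 10 lower. Over all tested genes 25.1% were higher and 21.6% lower in the first comparison, and 18.0% and 17.9% in the second. Myeloid markers gave 5 higher and then 4 lower of 10, endothelial 4 and 2 of 5, and smooth muscle 3 and 3 of 4 tested. B and plasma cell markers gave 3 and 1 of 6 tested, and fibroblast markers 2 and none of 7. The part of such RNA in the values that follow was not tested.

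In FL-shGFP against NL-shGFP, 21 of the 41 tested genes passed at an adjusted p below 0.05, 11 of them higher and 10 lower. Over all 17404 genes 46.7% passed, 25.1% higher and 21.6% lower, so the number of choline and one-carbon genes that moved was near that of the transcriptome. Choline and phosphatidylcholine genes had 7 higher and 3 lower of 21, the betaine and methionine genes 4 higher and 5 lower of 14, and the folate genes none higher and 2 lower of 6. The median log2 fold change was 0.08 over the 41 genes, against -0.00 over all genes. In 17 of the 41 genes the 5 samples of FL-shGFP lay entirely to one side of those of NL-shGFP, which happened in 34.2% of all tested genes.

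In FL-shAlpl against FL-shGFP 18 of the 41 passed, 11 higher and 7 lower, where 36.0% of all genes passed, 18.0% higher and 17.9% lower. The 11 higher became 7 without FL-shAlpl replicate 4 or without FL-shGFP replicate 1. Folate genes had 4 higher and none lower of 6, the betaine and methionine genes 5 higher and 1 lower of 14, and the choline and phosphatidylcholine genes 2 higher and 6 lower of 21. The groups did not overlap for 8 of the 41 genes, against 16.9% of all genes. In FL-shAlpl against NL-shGFP 9 of the 41 passed, 5 higher and 4 lower, where 17.4% of all genes passed, 9.31% higher and 8.12% lower. The 5 higher became 3 without FL-shAlpl replicate 2, and 3 higher and 2 lower was the count with the close NL-shGFP libraries summed. Here the groups did not overlap for 10 of the 41, against 14.6% of all genes. The first and second of these comparisons share the FL-shGFP samples, which enter them with opposite sign, and are given side by side below without a test of one against the other. In bulk RNA, fewer cells of a type and less RNA per cell cannot be told apart, which holds for each value that follows.

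**Figure D1:**
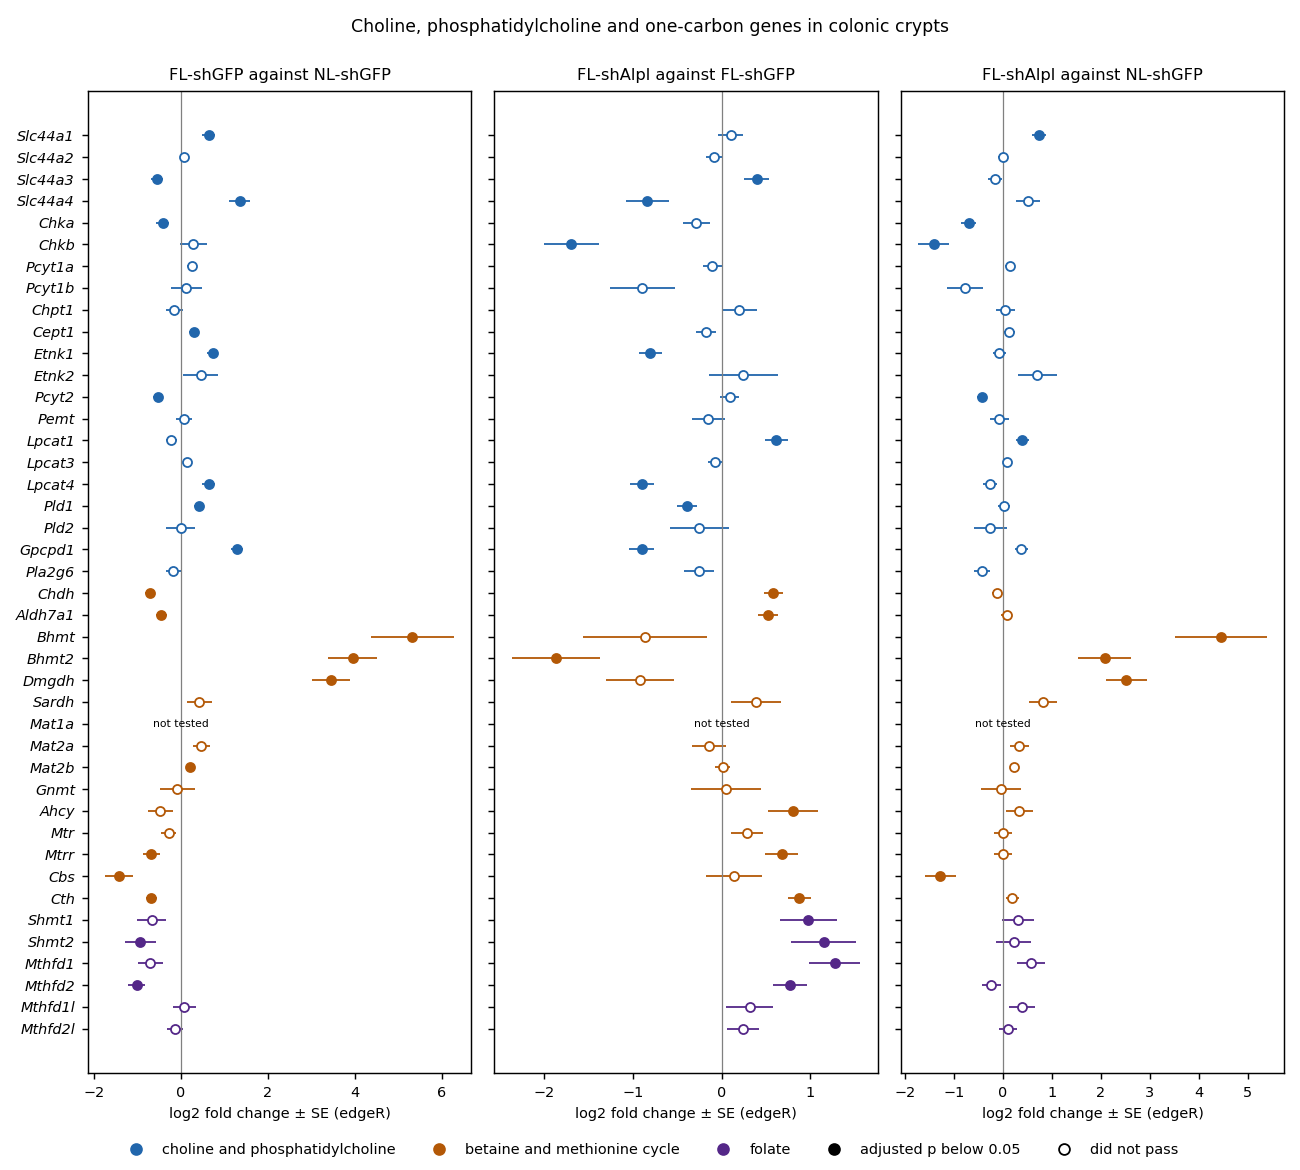
Log2 fold changes (edgeR, ± SE) of the 41 tested genes in the 3 comparisons, with Mat1a marked as not tested, n = 5 samples in each group, coloured by branch, with filled points at an adjusted p below 0.05. The axes of the panels differ in scale. Bhmt, Bhmt2 and Dmgdh lie far to the right in both comparisons with NL-shGFP, and the folate genes that pass lie left of 0 in FL-shGFP against NL-shGFP and right of 0 in FL-shAlpl against FL-shGFP.

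Levels per gene length covered a wide range. Mean deposited FPKM over the 15 samples was highest for Slc44a4, at 150, followed by the methionine adenosyltransferase gene Mat2a at 47.1, Ahcy at 43.5, Slc44a1 at 38.0 and Cept1 at 33.2. Pemt, which makes phosphatidylcholine by methylating phosphatidylethanolamine, stood at 2.22 FPKM and the choline kinase gene Chka at 1.73. Dmgdh, Bhmt2 and Bhmt were low, with means of 0.984, 0.785 and 0.205 FPKM. Mat1a, the liver form of methionine adenosyltransferase, was lowest at 0.0142 FPKM, with 28 counts in all of FL-shAlpl, 6 in FL-shGFP and 2 in NL-shGFP, too few to test.

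**Figure D2:**
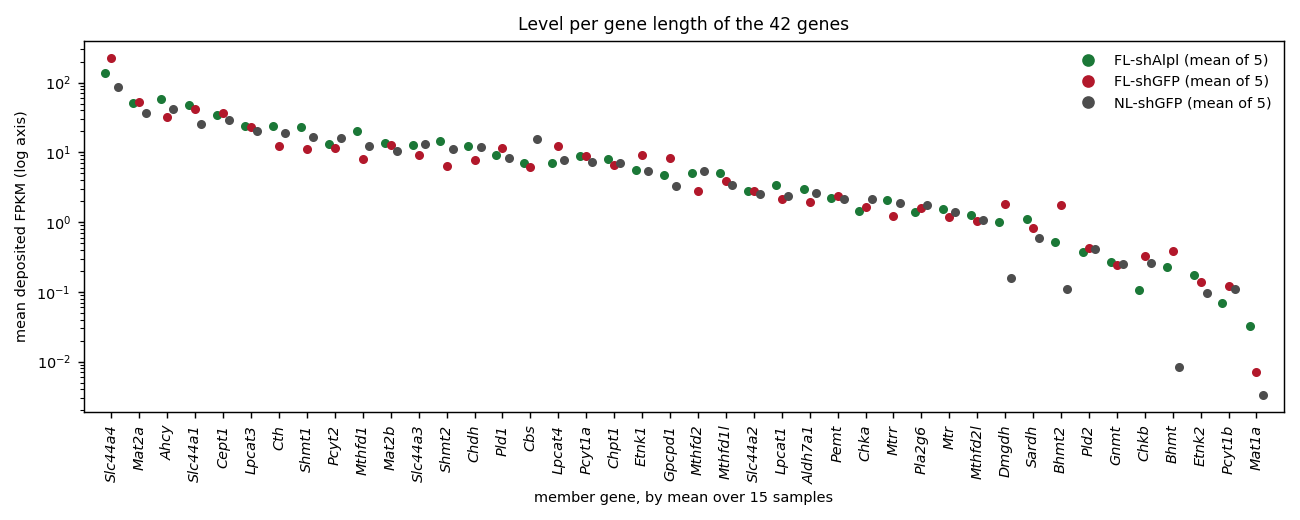
Mean deposited FPKM (log axis) of each of the 42 genes in FL-shAlpl, FL-shGFP and NL-shGFP (5 samples each), ordered by the mean over all 15 samples. Slc44a4 stands at the top and Mat1a at the bottom, and the 3 group means lie far apart for Dmgdh, Bhmt2 and Bhmt at the low end.

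The widest differences in the set were in 3 neighbouring genes of the betaine branch on mouse chromosome 13. In the RefSeq annotation (GRCm38.p6) the protein-coding genes run in the order Jmy, Gm6109, Bhmt, Bhmt2, Dmgdh and Arsb. Bhmt encodes the enzyme that moves a methyl group from betaine to homocysteine, Bhmt2 a related enzyme that uses S-methylmethionine as donor, and Dmgdh the mitochondrial dehydrogenase of dimethylglycine, the product that betaine leaves behind. Their promoter windows, from 250 bases before to 50 after the annotated start, are shown because the 3 genes moved together in both comparisons with NL-shGFP. The sequences are from RefSeq, GRCm38.p6, written 5′ to 3′ on the strand of the gene. The Bhmt window is chr13:93637709-93638008 on the minus strand, with AGGTCA, the hexamer that nuclear receptors bind, and CCAAT, on either strand, in capitals.
Bhmt: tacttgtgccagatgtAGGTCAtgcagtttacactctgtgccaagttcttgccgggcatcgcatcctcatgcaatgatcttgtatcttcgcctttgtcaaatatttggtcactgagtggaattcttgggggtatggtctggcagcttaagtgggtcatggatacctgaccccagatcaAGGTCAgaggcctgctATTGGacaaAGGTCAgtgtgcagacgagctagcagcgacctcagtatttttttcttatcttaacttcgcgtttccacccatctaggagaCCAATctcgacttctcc
The Bhmt2 window is chr13:93674253-93674552 on the minus strand and the Dmgdh window chr13:93674186-93674485 on the plus strand, with the GC box GGGCGG, on either strand, in capitals.
Bhmt2: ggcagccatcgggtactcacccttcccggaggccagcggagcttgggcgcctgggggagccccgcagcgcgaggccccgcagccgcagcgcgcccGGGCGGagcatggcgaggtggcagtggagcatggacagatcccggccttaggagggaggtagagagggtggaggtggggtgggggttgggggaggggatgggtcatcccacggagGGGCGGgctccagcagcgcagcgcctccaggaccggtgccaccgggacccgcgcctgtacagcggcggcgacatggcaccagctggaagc
Dmgdh: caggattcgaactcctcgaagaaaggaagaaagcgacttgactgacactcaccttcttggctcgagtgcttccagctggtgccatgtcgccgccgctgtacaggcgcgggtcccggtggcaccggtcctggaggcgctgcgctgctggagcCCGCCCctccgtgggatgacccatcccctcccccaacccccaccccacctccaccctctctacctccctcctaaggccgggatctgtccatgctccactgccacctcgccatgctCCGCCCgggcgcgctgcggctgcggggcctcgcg

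Bhmt2 and Dmgdh are transcribed away from each other. Their annotated starts lie 134 bases apart on opposite strands and their windows share 233 bases, so the same 2 GC boxes appear in both. The Bhmt2 window was 73.7% GC with 26 CpG and the Dmgdh window 68% GC with 25 CpG, whereas the Bhmt window was 48% GC with 8 CpG. Over 32851 RefSeq mouse windows of this length the medians were 52.7% GC and 7 CpG. The Bhmt window held AGGTCA 3 times, at positions -234, -72 and -47 from the start. At least 1 AGGTCA on either strand was found in 16.3% of all windows, and at least 3 in 60 windows, or 0.183%. Of the 50 windows of the 37 listed genes that had one, 6 held AGGTCA, 34 held GGGCGG (35.7% of all windows) and 25 held CCAAT (37.4%). Motifs this short recur widely, and a match describes the sequence only.

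Bhmt was all but silent in NL-shGFP and detectable in all 10 samples of the fatty liver groups. Its counts in replicates 1 to 5 were 40, 82, 35, 86 and 71 in FL-shAlpl, 101, 228, 20, 132 and 22 in FL-shGFP, and 0, 8, 0, 2 and 0 in NL-shGFP. Each fatty liver sample lay above every NL-shGFP sample. The summed counts of 503 in FL-shGFP against 10 in NL-shGFP gave a depth-adjusted ratio of 38.4 (95% interval for counting error 20.7 to 80.5), and 314 in FL-shAlpl against 10 gave 21.6 (11.6 to 45.4). Both intervals take each count as 1 molecule and leave out the spread between samples. They are too narrow if each fragment was counted as 2. The edgeR log2 fold change was 5.32 ± 0.95 in FL-shGFP against NL-shGFP (adjusted p = 0.000516) and 4.45 ± 0.94 in FL-shAlpl against NL-shGFP (adjusted p = 0.00518). Without NL-shGFP replicate 2, which held 8 of the 10 NL-shGFP counts, these became 7.06 and 6.19, so their size depends on that library. Bhmt passed the low-count filter only through the fatty liver groups, since no NL-shGFP sample reached 0.225 CPM, which are counts scaled by library size, and the filter alone made it likely to differ. FL-shAlpl and FL-shGFP overlapped (-0.87 ± 0.70, adjusted p = 0.349).

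Bhmt2 read 0.442, 2.34, 0.968, 1.21 and 1.16 CPM in FL-shAlpl, 5.65, 4.58, 2.18, 9.04 and 1.04 CPM in FL-shGFP, and 0.180, 0.249, 0.327, 0.397 and 0.284 CPM in NL-shGFP. The NL-shGFP values rest on 6, 10, 10, 15 and 10 counts. All samples of either fatty liver group were above those of NL-shGFP, and the fatty liver groups overlapped each other. Bhmt2 rose by 3.95 ± 0.57 on the log2 scale in FL-shGFP over NL-shGFP (adjusted p = 0.000102), and in FL-shAlpl it was 1.87 ± 0.50 below FL-shGFP on that scale, or 3.66-fold lower (adjusted p = 0.0100). It was still 2.08 ± 0.55 above NL-shGFP in FL-shAlpl (adjusted p = 0.0167), a call that was lost without FL-shAlpl replicate 2 (1.67, adjusted p = 0.0596) and with the close NL-shGFP libraries summed (adjusted p = 0.0809).

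Dmgdh read 1.36, 5.78, 2.33, 2.87 and 4.33 CPM in FL-shAlpl, 9.74, 6.49, 3.93, 8.57 and 2.86 CPM in FL-shGFP, and 0.480, 0.598, 0.785, 0.689 and 0.341 CPM in NL-shGFP. It rose 10.9-fold in FL-shGFP over NL-shGFP (log2 fold change 3.44 ± 0.43, adjusted p = 3.86e-05) and 5.75-fold in FL-shAlpl over NL-shGFP (2.52 ± 0.42, adjusted p = 0.00114), with no overlap in either case. Between FL-shAlpl and FL-shGFP the samples overlapped and the test did not pass (-0.92 ± 0.38, adjusted p = 0.0717). Values of the annotated neighbours Jmy and Arsb were close between groups. Gm6109, which lies between Jmy and Bhmt, was not examined. Jmy, a regulator of actin and p53, averaged 20.7 CPM in FL-shAlpl, 22.8 in FL-shGFP and 23.5 in NL-shGFP, with adjusted p = 0.792 in FL-shGFP against NL-shGFP. Arsb, a lysosomal sulfatase, averaged 38.2, 33.6 and 30.6 CPM in the same order of groups and did not pass in FL-shGFP against NL-shGFP (0.14 ± 0.11, adjusted p = 0.303), though FL-shAlpl exceeded NL-shGFP by 0.32 (adjusted p = 0.0465).

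**Figure D3:**
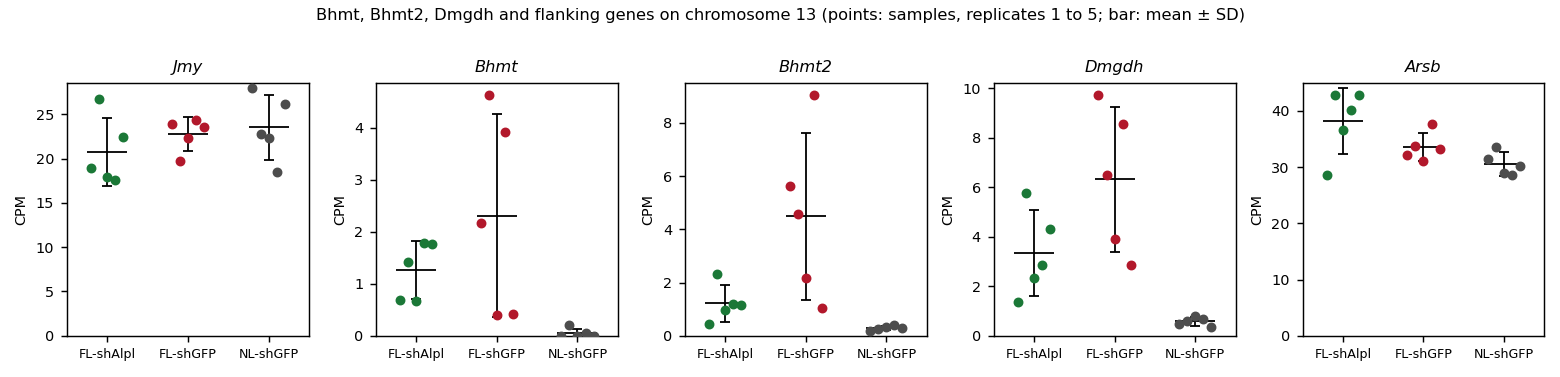
CPM of Bhmt, Bhmt2 and Dmgdh and of the nearby genes Jmy and Arsb in each sample (points, replicates 1 to 5 from left to right) with the mean ± SD of 5 samples in FL-shAlpl, FL-shGFP and NL-shGFP. The 3 betaine genes lie near 0 in NL-shGFP and spread widely in the fatty liver groups, while Jmy and Arsb overlap between FL-shGFP and NL-shGFP.

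The 3 genes varied widely within the fatty liver groups, and other RNAs varied with them. FL-shGFP replicates 3 and 5 had the least Bhmt, Bhmt2 and Dmgdh of that group. The same 2 samples had the lowest sums of the 10 surface colonocyte markers, at 6346 and 3803 CPM, where replicates 1, 2 and 4 had 10038, 9562 and 10402 CPM. In FL-shAlpl the marker sums were 1411, 3631, 3004, 2076 and 2779 CPM, and replicate 1 was lowest and replicate 2 highest for the marker sum, Bhmt2 and Dmgdh alike. NL-shGFP marker sums were 780 to 2201 CPM, a range that includes FL-shAlpl replicates 1 and 4, and both of these had more Dmgdh than any NL-shGFP sample. The 6 hepatocyte markers summed to 5.76 to 60.9 CPM in FL-shAlpl, 2.70 to 25.3 CPM in FL-shGFP and 3.36 to 8.87 CPM in NL-shGFP, with Fgb and Cyp2e1 at 0 in all NL-shGFP samples. In FL-shGFP the hepatocyte sums were 12.6, 25.3, 2.70, 14.8 and 5.88 CPM in replicates 1 to 5, and the samples stood in the same order by this sum as by Bhmt. In FL-shAlpl the order was not the same, and replicate 1, with 60.9 CPM of hepatocyte markers, had 0.680 CPM of Bhmt, against 0.664 to 1.79 CPM in the other 4. The part of colonocyte or hepatocyte RNA in these values was not tested. Bhmt shares 26.1% of its 50-base stretches with other annotated transcripts, among them the Bhmt-like Gm5096. That gene had 10, 12, 10, 10 and 10 counts in FL-shAlpl, 7, 27, 2, 10 and 2 in FL-shGFP and 0 in each NL-shGFP sample, and reads of the 2 genes may be mixed.

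The enzymes that make betaine, Chdh and Aldh7a1, were lower in FL-shGFP than in either other group. Chdh, the mitochondrial choline dehydrogenase, had 63.4, 65.7, 81.1, 71.2 and 76.3 CPM in FL-shAlpl, 47.4, 51.1, 47.0, 37.9 and 55.0 CPM in FL-shGFP and 84.3, 76.0, 71.9, 71.3 and 86.0 CPM in NL-shGFP. Every FL-shGFP sample was below every sample of the other 2 groups. Chdh fell by 0.71 ± 0.10 on the log2 scale in FL-shGFP against NL-shGFP (adjusted p = 0.000124) and rose by 0.58 ± 0.10 in FL-shAlpl over FL-shGFP (adjusted p = 0.00101), and FL-shAlpl and NL-shGFP overlapped (-0.12 ± 0.10, adjusted p = 0.458). Aldh7a1, an aldehyde dehydrogenase that oxidises betaine aldehyde, had 13.6, 14.5, 13.3, 17.1 and 14.8 CPM in FL-shAlpl, 9.09, 12.5, 9.47, 9.13 and 10.8 CPM in FL-shGFP and 13.6, 15.9, 13.3, 13.1 and 13.5 CPM in NL-shGFP. It too was lowest in FL-shGFP without overlap, at -0.45 ± 0.12 against NL-shGFP (adjusted p = 0.00612), and it was 0.52 ± 0.12 higher in FL-shAlpl than in FL-shGFP (adjusted p = 0.00364). Sardh, the dehydrogenase of sarcosine next in the path, averaged 5.79 CPM in FL-shAlpl, 4.41 in FL-shGFP and 3.28 in NL-shGFP and passed in none of the comparisons (adjusted p = 0.0581 in FL-shAlpl against NL-shGFP).

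Of the 4 choline transporter-like genes, Slc44a1 was raised in both fatty liver groups. This ubiquitous choline transporter of the plasma and mitochondrial membrane had 229, 380, 336, 239 and 376 CPM in FL-shAlpl, 327, 307, 264, 314 and 242 CPM in FL-shGFP and 200, 187, 185, 188 and 176 CPM in NL-shGFP. No fatty liver sample overlapped NL-shGFP. It rose 1.55-fold in FL-shGFP (log2 fold change 0.64 ± 0.14, adjusted p = 0.00256) and 1.67-fold in FL-shAlpl (0.74 ± 0.14, adjusted p = 0.00318) over NL-shGFP, and the fatty liver groups did not differ by the test (0.10 ± 0.14, adjusted p = 0.608).

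Slc44a4, known as a transporter of thiamine pyrophosphate in the colon and of choline, had 235, 554, 399, 321 and 524 CPM in FL-shAlpl, 834, 890, 570, 918 and 425 CPM in FL-shGFP and 314, 325, 273, 287 and 225 CPM in NL-shGFP. FL-shGFP lay above NL-shGFP without overlap, and FL-shAlpl overlapped both. It rose 2.55-fold in FL-shGFP over NL-shGFP (1.35 ± 0.24, adjusted p = 0.000517) and was 1.79-fold lower in FL-shAlpl than in FL-shGFP (-0.84 ± 0.24, adjusted p = 0.0146). Its 2 lowest FL-shGFP samples were again replicates 3 and 5, those with the lowest colonocyte marker sums, and the part of colonocyte RNA was not tested. Slc44a3 moved the opposite way, with means of 60.8 ± 7.27 CPM in FL-shAlpl, 46.2 ± 10.7 in FL-shGFP and 68.0 ± 8.79 in NL-shGFP (SD, n = 5 each). It was 1.47-fold lower in FL-shGFP than in NL-shGFP (adjusted p = 0.00525), with samples of the groups overlapping. Its rise in FL-shAlpl over FL-shGFP (0.39 ± 0.14, adjusted p = 0.0397) was lost in 9 of 18 alternatives, among them those without FL-shAlpl replicate 2, 3, 4 or 5 or FL-shGFP replicate 1, 2 or 4, with a largest adjusted p of 0.103. Slc44a2 averaged 22.7 CPM in FL-shAlpl, 24.1 in FL-shGFP and 22.7 in NL-shGFP and passed nowhere.

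Of the kinases that commit choline to phosphatidylcholine, Chka and Chkb were both lower in FL-shAlpl than in NL-shGFP, and Chkb was also lower than in FL-shGFP. Chka had 16.8, 13.2, 20.2, 15.6 and 15.2 CPM in FL-shAlpl, 18.7, 14.4, 23.9, 17.7 and 23.8 CPM in FL-shGFP and 25.2, 26.5, 26.0, 22.3 and 31.6 CPM in NL-shGFP. FL-shAlpl was below NL-shGFP in all samples, at -0.70 ± 0.15 (adjusted p = 0.00553, and 0.0553 with library totals alone). FL-shAlpl overlapped FL-shGFP and did not pass against it (-0.28 ± 0.15, adjusted p = 0.149). FL-shGFP overlapped NL-shGFP, and its difference of -0.42 ± 0.15 (adjusted p = 0.0331) was lost without NL-shGFP replicate 2, 3 or 5 or FL-shGFP replicate 1, 2 or 4 (adjusted p up to 0.0871) and with library totals alone (0.163). Chkb, the second choline kinase, was scarce, with 26, 13, 10, 15 and 16 counts in FL-shAlpl, 40, 41, 52, 53 and 42 in FL-shGFP and 24, 42, 17, 36 and 31 in NL-shGFP. Its depth-adjusted levels in FL-shAlpl, from 0.190 to 0.442 CPM, lay below the 0.791 to 1.58 CPM of FL-shGFP and the 0.556 to 1.05 CPM of NL-shGFP. Chkb was 3.24-fold lower than in FL-shGFP (-1.70 ± 0.32, adjusted p = 0.00127) and 2.65-fold lower than in NL-shGFP (-1.41 ± 0.32, adjusted p = 0.00712). These folds are uncertain in their source, because 49.8% of its 50-base stretches recur in other annotated transcripts such as Gm44502.

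Downstream of the kinases, only Cept1 of Pcyt1a, Pcyt1b, Chpt1 and Cept1 passed, and only in FL-shGFP against NL-shGFP. Pcyt1a, the enzyme that activates phosphocholine with CTP and sets the pace of the pathway, had 55.1, 63.9, 65.1, 62.2 and 63.4 CPM in FL-shAlpl, 70.5, 75.8, 62.0, 75.4 and 49.8 CPM in FL-shGFP and 60.8, 57.8, 56.1, 55.5 and 50.4 CPM in NL-shGFP. The 3 groups overlapped and no comparison passed, the closest being FL-shGFP against NL-shGFP (0.25 ± 0.11, adjusted p = 0.0649). Pcyt1a shares 7.73% of its 50-base stretches with other annotated transcripts, among them Slc51a, a bile acid transporter gene whose own log2 fold change was 2.72 in FL-shGFP against NL-shGFP. Pcyt1b, the minor form, averaged 0.353 CPM in FL-shAlpl, 0.667 in FL-shGFP and 0.606 in NL-shGFP and did not pass, and neither did Chpt1, the cholinephosphotransferase. Cept1, which joins choline or ethanolamine to diacylglycerol, averaged 102 ± 17.4 CPM in FL-shAlpl, 115 ± 12.6 in FL-shGFP and 93.1 ± 3.32 in NL-shGFP. Its rise in FL-shGFP over NL-shGFP (0.31, adjusted p = 0.0326) was lost in 11 of 20 alternatives, among them those without FL-shGFP replicate 1, 2 or 4 or NL-shGFP replicate 2, 3, 4 or 5, with a largest adjusted p of 0.10, and 21.9% of its stretches are shared with the neighbouring Dennd2d.

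Pemt had 4.47, 4.26, 2.92, 6.35 and 4.18 CPM in FL-shAlpl, 5.58, 5.23, 4.25, 4.22 and 5.29 CPM in FL-shGFP and 4.59, 5.24, 4.41, 5.24 and 3.81 CPM in NL-shGFP. The groups overlapped throughout, with log2 differences of 0.08 ± 0.19 in FL-shGFP against NL-shGFP (adjusted p = 0.758) and -0.15 ± 0.19 in FL-shAlpl against FL-shGFP (adjusted p = 0.562). Among the genes of ethanolamine phosphorylation and activation, which lead to the phosphatidylethanolamine that Pemt methylates, Etnk1 and Pcyt2 passed in 2 comparisons each. Etnk1, ethanolamine kinase, had 72.1, 81.2, 84.8, 57.4 and 79.9 CPM in FL-shAlpl, 140, 122, 130, 163 and 99.5 CPM in FL-shGFP and 74.6, 69.5, 85.4, 87.0 and 78.0 CPM in NL-shGFP. All FL-shGFP samples were above all others, at 0.73 ± 0.13 over NL-shGFP (adjusted p = 0.000491), and FL-shAlpl fell by 0.80 ± 0.13 against FL-shGFP (adjusted p = 0.000552), where it overlapped NL-shGFP (-0.07 ± 0.13, adjusted p = 0.760). Pcyt2, which activates phosphoethanolamine with CTP, had 51.6, 46.3, 60.2, 66.6 and 47.4 CPM in FL-shAlpl, 51.2, 45.6, 51.8, 50.9 and 55.7 CPM in FL-shGFP and 75.9, 86.2, 67.0, 69.4 and 67.5 CPM in NL-shGFP. The fatty liver groups overlapped (0.09 ± 0.11, adjusted p = 0.531), and both were below NL-shGFP without overlap, by -0.52 ± 0.11 in FL-shGFP (adjusted p = 0.00151) and -0.43 ± 0.11 in FL-shAlpl (adjusted p = 0.0138). The second of these did not pass when library totals alone set the scale (-0.28, adjusted p = 0.182) or with the close NL-shGFP libraries summed (adjusted p = 0.0665). Etnk2, with at most 1.25 CPM, passed nowhere.

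Among the genes that remodel and break down phosphatidylcholine, Gpcpd1 had the smallest adjusted p of all 41 genes in FL-shGFP against NL-shGFP. It encodes a glycerophosphocholine phosphodiesterase, which frees choline from the remnant of phosphatidylcholine. Gpcpd1 had 26.6, 37.6, 32.1, 27.2 and 39.2 CPM in FL-shAlpl, 61.9, 52.9, 68.2, 68.5 and 52.8 CPM in FL-shGFP and 27.3, 25.8, 26.9, 27.1 and 18.0 CPM in NL-shGFP. FL-shGFP stood above both other groups in every sample. It was 2.44-fold higher than NL-shGFP (1.28 ± 0.14, adjusted p = 1.7e-05), and FL-shAlpl was 1.87-fold lower than FL-shGFP (-0.90 ± 0.14, adjusted p = 0.000394) and did not differ from NL-shGFP by the test (0.38 ± 0.14, adjusted p = 0.0719).

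Lpcat4, a lysophospholipid acyltransferase, was also highest in FL-shGFP. It read 18.9, 20.3, 20.8, 20.3 and 14.3 CPM in FL-shAlpl, 27.9, 30.3, 42.4, 43.5 and 32.4 CPM in FL-shGFP and 24.4, 21.5, 25.2, 22.7 and 19.6 CPM in NL-shGFP, with FL-shGFP above the other 2 groups in every sample. The log2 fold changes were 0.64 ± 0.14 in FL-shGFP against NL-shGFP (adjusted p = 0.00203) and -0.90 ± 0.14 in FL-shAlpl against FL-shGFP (adjusted p = 0.000409). In FL-shAlpl against NL-shGFP Lpcat4 did not pass (-0.26 ± 0.14, adjusted p = 0.213), with a sign opposite to that of Gpcpd1. Lpcat1, which reacylates lysophosphatidylcholine, was instead highest in FL-shAlpl, with 14.8, 17.4, 12.7, 16.5 and 14.3 CPM there, 8.94, 12.6, 9.90, 7.53 and 10.3 CPM in FL-shGFP and 10.5, 11.6, 11.3, 12.05 and 11.9 CPM in NL-shGFP. It rose by 0.62 ± 0.13 over FL-shGFP (adjusted p = 0.00298) without overlap. Against NL-shGFP its rise of 0.40 ± 0.13 (adjusted p = 0.0482) was lost in 14 of 20 alternatives, among them those without FL-shAlpl replicate 1, 2, 4 or 5 or any single NL-shGFP replicate, with a largest adjusted p of 0.175. Pld1, a phospholipase D that releases choline, averaged 115 ± 17.0 CPM in FL-shAlpl, 150 ± 17.1 in FL-shGFP and 113 ± 11.9 in NL-shGFP. It was 1.33-fold higher in FL-shGFP than in NL-shGFP (adjusted p = 0.00939) and 1.31-fold lower in FL-shAlpl than in FL-shGFP (adjusted p = 0.0178, and 0.0517 with library totals alone). Lpcat3, Pld2 and the phospholipase gene Pla2g6 passed in no comparison, although all 5 FL-shAlpl samples of Pla2g6 were below those of NL-shGFP (-0.43 ± 0.17, adjusted p = 0.0912).

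**Figure D4:**
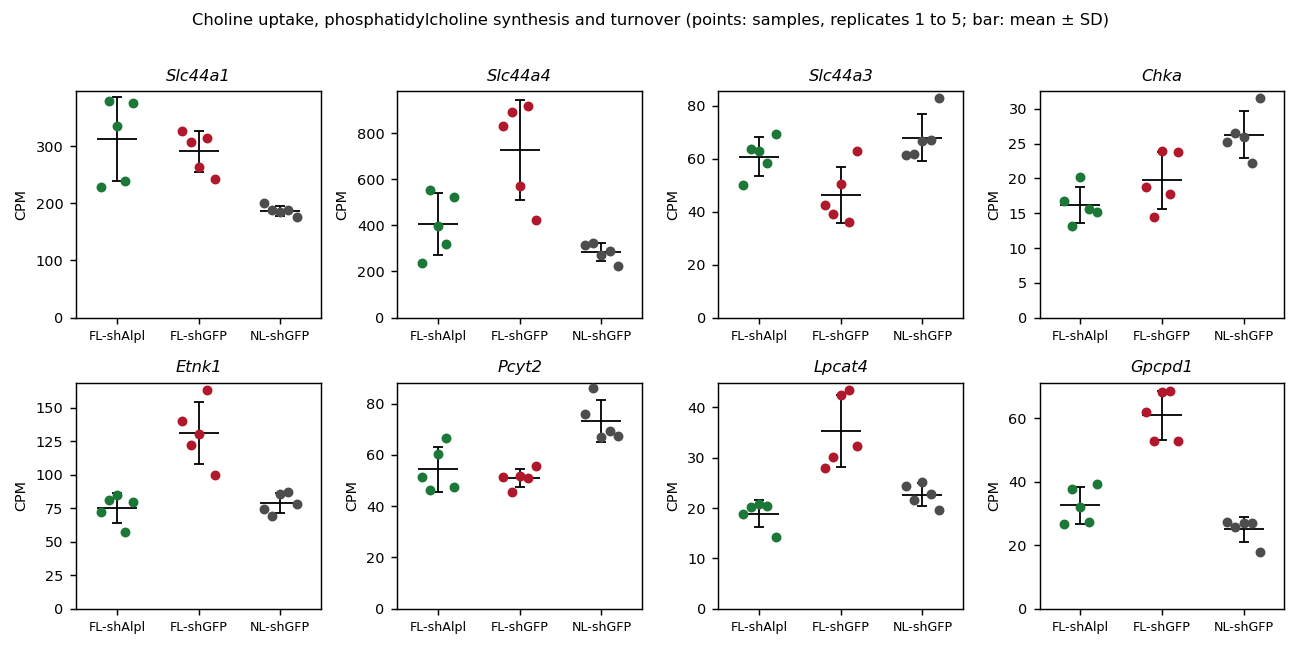
CPM of 8 choline and phosphatidylcholine genes in each sample (points, replicates 1 to 5 from left to right) with the mean ± SD of 5 samples in FL-shAlpl, FL-shGFP and NL-shGFP. Etnk1, Lpcat4 and Gpcpd1 are high in FL-shGFP alone of the 3 groups, Slc44a1 is above NL-shGFP in both fatty liver groups, and Pcyt2 is below it in both.

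In the methionine cycle and the path from homocysteine to cysteine, Cbs, Cth and Mtrr were lower in FL-shGFP than in NL-shGFP, Mat2b was higher, and the other 4 tested genes did not pass. Cbs, cystathionine beta-synthase, had 67.7, 31.7, 46.9, 66.8 and 35.8 CPM in FL-shAlpl, 34.0, 30.5, 55.7, 20.3 and 85.5 CPM in FL-shGFP and 106, 115, 127, 130 and 127 CPM in NL-shGFP. Both fatty liver groups were below NL-shGFP in every sample. Cbs was 2.67-fold lower in FL-shGFP (-1.42 ± 0.32, adjusted p = 0.00271) and 2.43-fold lower in FL-shAlpl (-1.28 ± 0.32, adjusted p = 0.0134), and the fatty liver groups overlapped (0.14 ± 0.32, adjusted p = 0.759). With the close NL-shGFP libraries summed, the difference of FL-shAlpl from NL-shGFP had an adjusted p of 0.0570.

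Cth, cystathionine gamma-lyase, the next enzyme towards cysteine, had 59.2, 59.2, 74.0, 59.0 and 59.0 CPM in FL-shAlpl, 32.2, 38.5, 33.0, 24.6 and 40.4 CPM in FL-shGFP and 57.3, 65.6, 50.2, 47.8 and 49.9 CPM in NL-shGFP. FL-shGFP was below both other groups in every sample, 1.60-fold below NL-shGFP (-0.68 ± 0.13, adjusted p = 0.000741), and FL-shAlpl was 1.84-fold above FL-shGFP (0.88 ± 0.13, adjusted p = 0.000284). In FL-shAlpl Cth overlapped NL-shGFP (0.20 ± 0.13, adjusted p = 0.320), where Cbs did not overlap it.

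Ahcy, which splits S-adenosylhomocysteine, had 172, 115, 128, 239 and 107 CPM in FL-shAlpl, 60.3, 88.3, 126, 39.8 and 120 CPM in FL-shGFP and 129, 140, 109, 109 and 116 CPM in NL-shGFP. The groups overlapped. It was 1.75-fold higher in FL-shAlpl than in FL-shGFP (0.81 ± 0.28, adjusted p = 0.0375), a call that did not hold without FL-shAlpl replicate 1 or 4 or FL-shGFP replicate 1, 2 or 4 (adjusted p up to 0.115). Of its 50-base stretches 68.7% recur in other annotated transcripts such as Gm4737, so its counts are uncertain. Mat2a, the extrahepatic methionine adenosyltransferase, had 172, 211, 313, 159 and 228 CPM in FL-shAlpl, 181, 184, 316, 240 and 270 CPM in FL-shGFP and 154, 142, 171, 179 and 214 CPM in NL-shGFP. The groups overlapped, and FL-shGFP against NL-shGFP missed the threshold (0.47 ± 0.19, adjusted p = 0.0563), though it passed in 8 of 20 alternatives. Mat2a shares 14.2% of its 50-base stretches with other annotated transcripts such as Particl. Its regulatory subunit Mat2b was 0.21 ± 0.08 higher in FL-shGFP than in NL-shGFP (adjusted p = 0.0414), which was lost in 13 of 20 alternatives, among them those without FL-shGFP replicate 1, 2, 4 or 5 or NL-shGFP replicate 3, 4 or 5 (adjusted p up to 0.188).

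Mtrr, the reductase that keeps methionine synthase active, averaged 10.2 ± 2.80 CPM in FL-shAlpl, 6.34 ± 0.736 in FL-shGFP and 10.1 ± 1.93 in NL-shGFP. FL-shGFP lay below NL-shGFP without overlap (-0.68 ± 0.19, adjusted p = 0.00882), and FL-shAlpl was 0.68 ± 0.19 above FL-shGFP (adjusted p = 0.0124). Methionine synthase itself, Mtr, averaged 12.3 CPM in FL-shAlpl, 10.1 in FL-shGFP and 12.3 in NL-shGFP and passed nowhere. Gnmt, glycine N-methyltransferase, abundant in liver, stayed at 0.303, 0.293 and 0.311 CPM in the same order of groups.

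Folate genes were low in FL-shGFP or high in FL-shAlpl where they passed. Mthfd2, the mitochondrial enzyme that oxidises methylene-tetrahydrofolate, had 22.4, 12.5, 14.6, 22.1 and 11.5 CPM in FL-shAlpl, 9.998, 10.4, 8.002, 8.60 and 11.6 CPM in FL-shGFP and 21.4, 24.9, 16.6, 18.4 and 17.0 CPM in NL-shGFP. FL-shGFP lay below NL-shGFP in every sample and touched FL-shAlpl at a single pair of values. It was 2.02-fold lower in FL-shGFP than in NL-shGFP (-1.02 ± 0.19, adjusted p = 0.000791) and 1.71-fold higher in FL-shAlpl than in FL-shGFP (0.78 ± 0.19, adjusted p = 0.00695).

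Shmt2, the mitochondrial serine hydroxymethyltransferase, had 72.1, 22.1, 31.2, 65.9 and 21.0 CPM in FL-shAlpl, 12.6, 17.9, 28.8, 9.34 and 26.7 CPM in FL-shGFP and 33.0, 36.9, 36.9, 32.8 and 42.4 CPM in NL-shGFP. FL-shGFP was below NL-shGFP in every sample, while FL-shAlpl spread across both. Its differences, -0.93 ± 0.36 in FL-shGFP against NL-shGFP (adjusted p = 0.0478) and 1.15 ± 0.37 in FL-shAlpl against FL-shGFP (adjusted p = 0.0240), were lost in 14 of 20 and 7 of 18 alternatives (adjusted p up to 0.111 and 0.0760). Against FL-shGFP the loss came without FL-shAlpl replicate 1 or 4 or FL-shGFP replicate 1 or 4, and against NL-shGFP without any single NL-shGFP replicate or FL-shGFP replicate 1, 2 or 4. Mthfd1, the trifunctional cytosolic enzyme, averaged 84.4 ± 28.2 CPM in FL-shAlpl, 34.8 ± 15.9 in FL-shGFP and 56.7 ± 3.95 in NL-shGFP. It was 2.42-fold higher in FL-shAlpl than in FL-shGFP (1.28 ± 0.29, adjusted p = 0.00428), with 1 overlapping pair, and its difference between FL-shGFP and NL-shGFP missed the threshold (-0.70 ± 0.29, adjusted p = 0.0552). Shmt1, the cytosolic hydroxymethyltransferase, was 1.97-fold higher in FL-shAlpl than in FL-shGFP (adjusted p = 0.0294), lost without FL-shAlpl replicate 1 or 4 or FL-shGFP replicate 1 or 2 (adjusted p up to 0.0743). Mthfd1l and Mthfd2l, the other mitochondrial members, passed in no comparison. None of the 6 passed in FL-shAlpl against NL-shGFP, where only 17.4% of all genes passed.

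The 11 proliferation markers summed to 1850, 854, 1037, 1769 and 511 CPM in FL-shAlpl replicates 1 to 5, 341, 459, 749, 156 and 858 CPM in FL-shGFP and 1326, 1245, 1039, 1034 and 946 CPM in NL-shGFP. FL-shAlpl replicates 1 and 4, with the highest sums, also had the most Shmt2, Mthfd1, Mthfd2 and Ahcy, and FL-shGFP replicate 4, with the lowest sum, had the least Shmt2, Mthfd1, Ahcy, Cbs and Cth of its group. The least Mthfd2 of FL-shGFP was instead in replicate 3, whose sum of 749 CPM was the second highest there. Nor did Cth follow the sums in FL-shAlpl, with 74.0 CPM in replicate 3 and 59.0 to 59.2 CPM in the other samples. In NL-shGFP the orders differed. Replicate 1 had the highest sum there, and replicate 2 the most Mthfd1, Mthfd2 and Ahcy. Replicate 5 of NL-shGFP, with the lowest sum, had the most Shmt2. Of the 11 markers 7 were lower in FL-shGFP than in NL-shGFP and 7 higher in FL-shAlpl than in FL-shGFP. Over all tested genes 21.6% were lower in the first of these comparisons and 18.0% higher in the second. The part of proliferating cells in the folate, Ahcy, Cbs and Cth values was not tested.

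**Figure D5:**
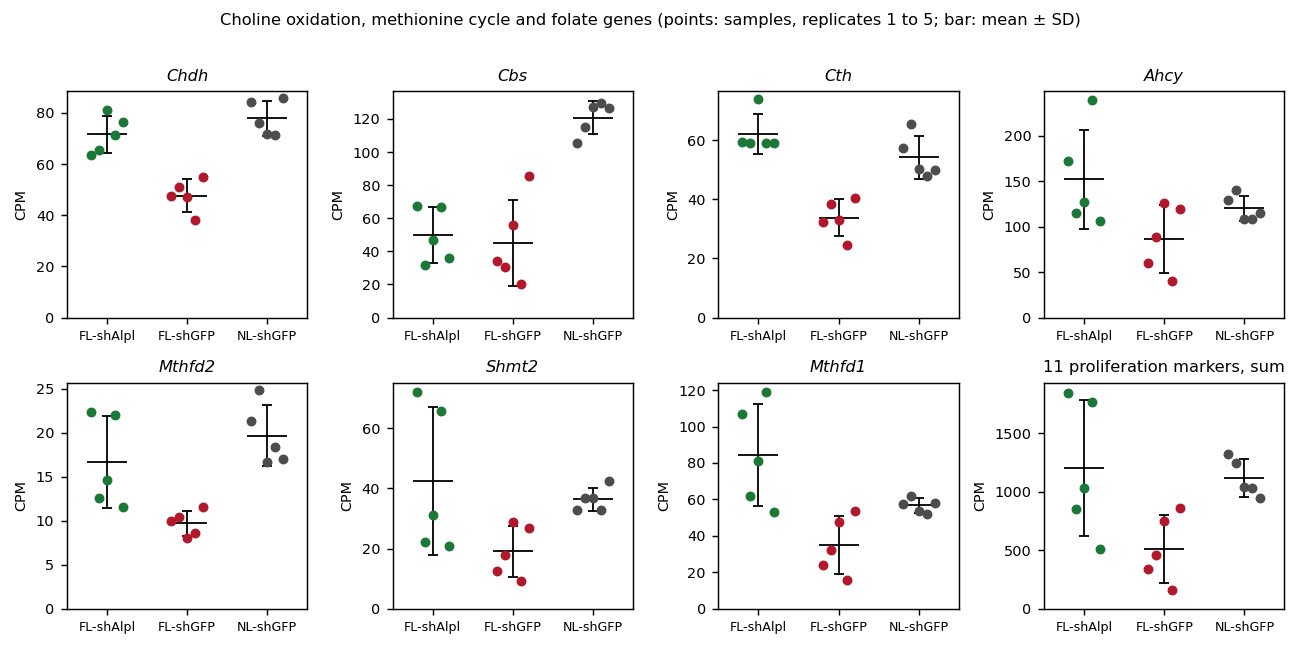
CPM of 7 genes of choline oxidation, the methionine cycle and folate, and the summed CPM of 11 proliferation markers, in each sample (points, replicates 1 to 5 from left to right) with the mean ± SD of 5 samples in FL-shAlpl, FL-shGFP and NL-shGFP. Chdh, Cth and Mthfd2 are lowest in FL-shGFP, and Cbs is low in both fatty liver groups. Shmt2, Mthfd1, Ahcy and the marker sum spread widely in the fatty liver groups and less in NL-shGFP.

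Other genes of these pathways were taken from chosen lists, whose counts stand against the 25.1% higher and 21.6% lower of all genes in FL-shGFP against NL-shGFP, the 18.0% and 17.9% in FL-shAlpl against FL-shGFP, and the 9.31% and 8.12% in FL-shAlpl against NL-shGFP. Of 30 further choline and ethanolamine phospholipid genes tested, 12 were higher and 5 lower in FL-shGFP than in NL-shGFP, and 1 was higher and 9 lower in FL-shAlpl than in FL-shGFP. In either direction 56.7% of the 30 passed in the first of these comparisons, where 46.7% of all genes did, and 33.3% in the second, where 36.0% of all genes did. Slc22a5, the carnitine transporter, averaged 24.3 CPM in FL-shAlpl, 60.1 in FL-shGFP and 23.8 in NL-shGFP, a rise of 1.34 ± 0.19 in FL-shGFP over NL-shGFP (adjusted p = 9.31e-05) and a difference of -1.31 ± 0.19 in FL-shAlpl against FL-shGFP (adjusted p = 0.000263). Abca1, which exports phospholipid and cholesterol, averaged 7.25, 19.6 and 6.60 CPM in the same order of groups, with log2 fold changes of 1.57 ± 0.26 (adjusted p = 0.000264) and -1.43 ± 0.26 (adjusted p = 0.0010). Pla2g16, a phospholipase and acyltransferase, was instead lower in both fatty liver groups, at 49.4 CPM in FL-shAlpl and 46.0 in FL-shGFP against 87.8 in NL-shGFP. In FL-shAlpl against NL-shGFP 3 of the 30 were higher and 2 lower, together 16.7% against the 17.4% of all genes, with Pla2g16 the first by adjusted p (-0.83 ± 0.15, adjusted p = 0.00208).

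Of 27 further methionine, methylation and transsulfuration genes tested, 4 were higher and 12 lower in FL-shGFP than in NL-shGFP, and 14 were higher and none lower in FL-shAlpl than in FL-shGFP. In either direction 59.3% of the 27 passed in the first, against 46.7% of all genes, and 51.9% in the second, against 36.0%. Slc6a20a, which carries proline and betaine across the brush border, averaged 3.97 CPM in FL-shAlpl and 4.39 in FL-shGFP against 0.566 in NL-shGFP. Its log2 fold changes over NL-shGFP were 2.79 ± 0.27 in FL-shAlpl (adjusted p = 3.04e-05) and 2.94 ± 0.27 in FL-shGFP (adjusted p = 4.82e-06). Cdo1, the cysteine dioxygenase that starts taurine synthesis, averaged 32.0 CPM in FL-shAlpl, 8.73 in FL-shGFP and 38.8 in NL-shGFP, at -2.15 ± 0.39 in FL-shGFP against NL-shGFP (adjusted p = 0.000640). Mmachc, which processes vitamin B12, averaged 13.5, 5.42 and 13.98 CPM in the same order of groups. In FL-shAlpl against NL-shGFP 4 of the 27 were higher and none lower, or 14.8% against 17.4% of all genes. Besides Slc6a20a these were the genes of glutathione synthesis Gclm (0.76 ± 0.14, adjusted p = 0.00199), Gss (0.73 ± 0.15, adjusted p = 0.00369) and Gclc (0.64 ± 0.13, adjusted p = 0.00409).

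Of 22 further folate and glycine cleavage genes tested, 7 were higher and 9 lower in FL-shGFP than in NL-shGFP, 9 were higher and 2 lower in FL-shAlpl than in FL-shGFP, and 4 were higher and 1 lower in FL-shAlpl than in NL-shGFP. In either direction 72.7% of the 22 passed in the first, against 46.7% of all genes, 11 of 22 in the second, against 36.0%, and 22.7% in the last, against 17.4%. Ggh, the hydrolase that trims polyglutamate from folate, averaged 251 CPM in FL-shAlpl and 384 in FL-shGFP against 32.8 in NL-shGFP, with log2 fold changes of 2.94 ± 0.52 (adjusted p = 0.00179) and 3.55 ± 0.53 (adjusted p = 0.000159) over NL-shGFP. Aldh1l1, which oxidises formyl-tetrahydrofolate, averaged 74.9 CPM in FL-shAlpl and 76.2 in FL-shGFP against 32.8 in NL-shGFP (1.19 ± 0.18 and 1.22 ± 0.18). The purine synthesis gene Paics averaged 97.2 CPM in FL-shAlpl, 36.9 in FL-shGFP and 57.5 in NL-shGFP, and rose by 1.40 ± 0.21 in FL-shAlpl over FL-shGFP (adjusted p = 0.000296). Gldc, the glycine decarboxylase, was scarce and averaged 0.139, 0.615 and 0.309 CPM in the same order of groups, lower by 2.11 ± 0.35 in FL-shAlpl than in FL-shGFP on the log2 scale. Of the 3 serine synthesis genes, Phgdh was lower in FL-shGFP than in NL-shGFP (-1.70, adjusted p = 0.0197), and Phgdh (1.80, adjusted p = 0.0196) and Psat1 (1.30, adjusted p = 0.0168) were higher in FL-shAlpl than in FL-shGFP.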

How the data were processed

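RNA of mouse colonic crypts was measured in 15 samples, 5 in each of 3 groups. The authors deposited whole-number read counts per gene and FPKM values for all samples. Per the labels' protocols, mRNA was enriched from RNA purified on columns, and HISAT2 was among the tools, per the submitters' processing notes. Its version, the counter, the genome build, the annotation and the strand setting: each was not given in the sources used here, so reads that overlapping or near-identical genes share cannot be assigned. Even numbers made up 72.4% to 77.2% of the counts from 1 to 12 in each library, so small deposited counts may hold fewer molecules than they show. Intervals cover counting error only, with each count taken as 1 molecule.

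Genes were named through the reference tables (32241 of 32939 rows matched a symbol). One edgeR 4.0.16 quasi-likelihood model (R 4.3.3, limma 3.58.1, TMM factors, robust, 12 residual degrees of freedom) was fitted to the 17404 genes that passed filterByExpr by group, with Benjamini-Hochberg adjustment at 0.05 over all of them. Log2 fold changes carry standard errors, CPM are TMM-scaled, and ± beside CPM is the SD. The common biological coefficient of variation was 30.2%. Levels between genes use the deposited FPKM.

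The 42 genes and the other lists were chosen with earlier results of these data known. Values per sample are given for 12 key steps, for up to 14 genes that passed without overlap in FL-shGFP against NL-shGFP and for up to 8 that passed in each other comparison. Other genes are given by counts, means or ranges, and of each pathway list up to 4 passing genes per comparison, the serine genes aside. Alternatives were DESeq2 1.42.0, RLE factors, a filter of 1 CPM in 5 samples or none at all, library totals alone, only the 2 groups compared, a replicate block, no mitochondrially encoded genes, close NL-shGFP libraries summed (the pairs 1 with 2 and 3 with 4 together were added after seeing the data) and each sample left out. The code was tested on simulated data. Promoter windows are from RefSeq (GRCm38.p6), and motifs were searched on both strands. Figures used Python 3.11.15 and matplotlib 3.10.9.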

Additional observations from a re-analysis of the deposited data

Results flagged for a closer look

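A single sample stood far from the other 4 of its group in 9 of the 125 groups of 5 values checked, and chance gives about 1 in 20. In NL-shGFP, replicate 5 had 83.0 CPM of Slc44a3 (others 61.6 to 66.9) and 18.0 CPM of Gpcpd1 (others 25.8 to 27.3). Replicate 2 of NL-shGFP had 15.9 CPM of Aldh7a1 (others 13.1 to 13.6) and 0.199 CPM of Bhmt (others 0 to 0.0530), and replicate 3 had 1.01 CPM of Etnk2 (others 0.265 to 0.399). In FL-shGFP, replicate 4 had 4.67 CPM of Pld2 (others 1.97 to 2.37) and replicate 3 had 55.9 CPM of Mat2b (others 64.6 to 66.4). In FL-shAlpl, replicate 1 had 55.1 CPM of Pcyt1a (others 62.2 to 65.1) and replicate 3 had 74.0 CPM of Cth (others 59.0 to 59.2).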

How the results depend on the processing

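Of the genes that passed, 13 of 18 in FL-shAlpl against FL-shGFP, 4 of 9 in FL-shAlpl against NL-shGFP and 17 of 21 in FL-shGFP against NL-shGFP passed under every alternative that tested them. In FL-shAlpl against FL-shGFP the number higher, 11, was 7 with only the 2 groups compared and 7 to 11 with a sample left out (7 without FL-shGFP replicate 1 or FL-shAlpl replicate 4), and the number lower was 7 to 9. In FL-shAlpl against NL-shGFP, 10 were higher and 2 lower with library totals alone, 3 and 2 with the close NL-shGFP pairs summed, and 3 to 7 and 4 with a sample left out (3 without FL-shAlpl replicate 2). Library totals alone moved the median of all genes there to 0.19 and the share of higher calls to 75%, against 53.4%, and in FL-shGFP against NL-shGFP that share to 65.8%, against 53.8%. In FL-shGFP against NL-shGFP 9 to 11 were higher and 8 to 12 lower with a sample left out. Values of the genes given per sample changed sign in 8 cases, none of which had passed. With a sample left out these were, in FL-shAlpl against FL-shGFP, Cbs (-0.046 without FL-shGFP replicate 4, range to 0.505) and Slc44a1 (-0.018 without FL-shAlpl replicate 2, range to 0.199), and in FL-shAlpl against NL-shGFP Shmt2 (-0.054 without FL-shAlpl replicate 1, range to 0.394), Pemt (0.048 without FL-shAlpl replicate 3, range from -0.234) and Etnk1 (0.012 without FL-shAlpl replicate 4, range from -0.133). With library totals alone they were Pemt (0.068), Chdh (0.0091) and Etnk1 (0.065) in FL-shAlpl against NL-shGFP. The causes of these shifts were not tested. Whether replicate numbers pair the samples was not settled. Of 15 same-numbered pairs, 3 had a correlation of deviations over 0.1, all of them between NL-shGFP and FL-shGFP. The range was -0.353 to 0.326 for same-numbered pairs and -0.323 to 0.381 for the others. Of 30 best matches, each chosen among the 5 samples of another group, 13 fell on the same number. The spread that chance would give was not computed. With a replicate block 16 genes passed in FL-shAlpl against FL-shGFP (9 higher), 19 in FL-shGFP against NL-shGFP (10 higher) and 8 in FL-shAlpl against NL-shGFP. Depth limits Mat1a, Gnmt, Pcyt1b, Etnk2, Chkb and Bhmt, whose levels rest on few counts. It also limits Bhmt2 in NL-shGFP, with 51 counts in all.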
